A study of Mus musculus with 10 samples.

Results

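Activity-induced effector genes are switched on in neurons within minutes to hours of synaptic activity, and most of their products act directly on synapses, kinases or transcripts. The group described here held 10 such genes, Arc, Npas4, Nptx2, Dusp1, Dusp6, Ier2, Btg2, Rheb, Plk2 and Ptgs2, chosen by name from a series that covered 17876 genes. Their probe sets, the groups of short probes that each report a transcript, were found through the gene identifiers of the deposited comparison table, which gave 13 of 45037 probe sets. The tissue was frozen neocortex of male B6xC3 F1 hybrid mice on a control diet, with 5 mice of 30 months and 5 mice of 5 months, and each mouse had its own Affymetrix array. The question of the series is how gene expression in the neocortex differs with age. Both ages were singly housed and had the same AIN-93M diet. The array names of all 30-month mice carry a prefix that those of the 5-month mice lack; its meaning is not stated, and whatever it marks cannot be told apart from age. Whole tissue was profiled, so all cell types contributed RNA.

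In the neuron, calcium entry through NMDA receptors and voltage-gated channels activates CaM kinases and the Ras-ERK cascade, which act on CREB, SRF and MEF2 at the promoters of these genes. Some of the products are regulators of transcription or growth (Npas4, Btg2, Ier2), some feed back on MAP kinases (Dusp1, Dusp6), and others change synapses or local signalling (Arc, Nptx2, Plk2, Rheb, Ptgs2). In the cortex Arc, Npas4 and Ptgs2 are best known from excitatory neurons, whereas Dusp1, Ier2 and Btg2 are induced in many cell types.

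Promoter sequences are shown because the cyclic AMP response element (CRE, letters TGACGTCA), the site that CREB binds, recurs among members whose transcripts differed in direction with age. RefSeq windows of 300 bases (250 before and 50 after the transcript start, GRCm38.p6) matched 7 of the 10 members, all but Arc, Nptx2 and Ier2. The CRE, which reads the same on both strands, was in the windows of Btg2, Dusp1 and Plk2, and in 1.79% of all 32851 windows. Its first base lay 166 bases before the start in Btg2, 143 in Dusp1 and 62 in Plk2. The shorter core TGACG, searched on both strands and contained in the CRE, was in 6 of the 7 windows and in 20.8% of all windows. Npas4 held that core on each strand, with first bases 179 and 169 bases before the start. The other motifs searched on both strands were the EGR motif GCGNGGGCG (Btg2, 5.55% of all windows), the E-box CACGTG (Dusp1, Ptgs2 and Rheb, 7.15%), the AP-1 motif TGANTCA (0 members, 7.81%), the CArG box of SRF (0 members, 1.63%) and the letters TATAAA of the TATA box (0 members, 13.6%). Only those letters were searched, so a TATA box with other letters was not counted. The windows below run 5′ to 3′ on the strand of the gene, with the CRE in capitals for Btg2 (chr1:134079106-134079405, minus strand), Dusp1 (chr17:26508423-26508722, minus strand) and Plk2 (chr13:110394794-110395093, plus strand), and the core in capitals for Npas4 (chr19:4989922-4990221, minus strand).
Btg2: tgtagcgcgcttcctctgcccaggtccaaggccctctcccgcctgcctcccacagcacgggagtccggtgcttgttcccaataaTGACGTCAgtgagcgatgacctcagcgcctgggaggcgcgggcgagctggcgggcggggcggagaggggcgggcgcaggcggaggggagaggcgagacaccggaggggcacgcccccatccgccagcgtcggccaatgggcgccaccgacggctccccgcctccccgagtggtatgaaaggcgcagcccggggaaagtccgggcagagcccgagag
Plk2: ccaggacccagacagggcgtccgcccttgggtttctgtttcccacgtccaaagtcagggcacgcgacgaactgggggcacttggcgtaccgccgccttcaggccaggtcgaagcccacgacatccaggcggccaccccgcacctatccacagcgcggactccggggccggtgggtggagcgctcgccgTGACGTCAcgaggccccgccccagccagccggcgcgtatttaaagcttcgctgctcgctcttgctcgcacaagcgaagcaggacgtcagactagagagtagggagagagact
Dusp1: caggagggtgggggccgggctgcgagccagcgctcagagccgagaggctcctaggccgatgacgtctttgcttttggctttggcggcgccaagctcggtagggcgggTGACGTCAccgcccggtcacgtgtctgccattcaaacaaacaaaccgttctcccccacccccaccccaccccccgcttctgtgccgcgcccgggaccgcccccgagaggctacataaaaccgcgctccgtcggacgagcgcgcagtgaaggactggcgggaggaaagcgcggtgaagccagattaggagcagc
Npas4: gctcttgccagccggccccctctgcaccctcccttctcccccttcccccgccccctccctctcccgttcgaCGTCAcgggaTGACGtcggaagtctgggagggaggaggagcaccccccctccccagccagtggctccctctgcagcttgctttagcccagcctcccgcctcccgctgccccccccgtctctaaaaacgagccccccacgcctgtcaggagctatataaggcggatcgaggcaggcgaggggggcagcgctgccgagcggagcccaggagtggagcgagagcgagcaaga

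The members did not move together. Arc, Npas4, Btg2 and Rheb were lower at 30 months, Nptx2, Plk2 and Ptgs2 were higher, and Dusp1, Dusp6 and Ier2 did not pass the test. A gene was called at a Benjamini-Hochberg adjusted p under 0.05 in limma, a linear model with shared variance fitted over 11963 genes, each represented by its brightest tested probe set. Testing was limited to probe sets brighter, on the log2 mean over all arrays, than the median of all probe sets (6.89). All 10 members had at least 1 tested probe set, and 12 of their 13 probe sets were tested. The background was large: 46.3% of all tested genes were called, 12.3% lower and 34% higher. Against it stood 4 lower and 3 higher of 10 members, and the median log2 change was −0.11 over the members and 0.08 over all genes. In bulk tissue, fewer cells of a type and less RNA per cell cannot be told apart.

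**Figure D1:**
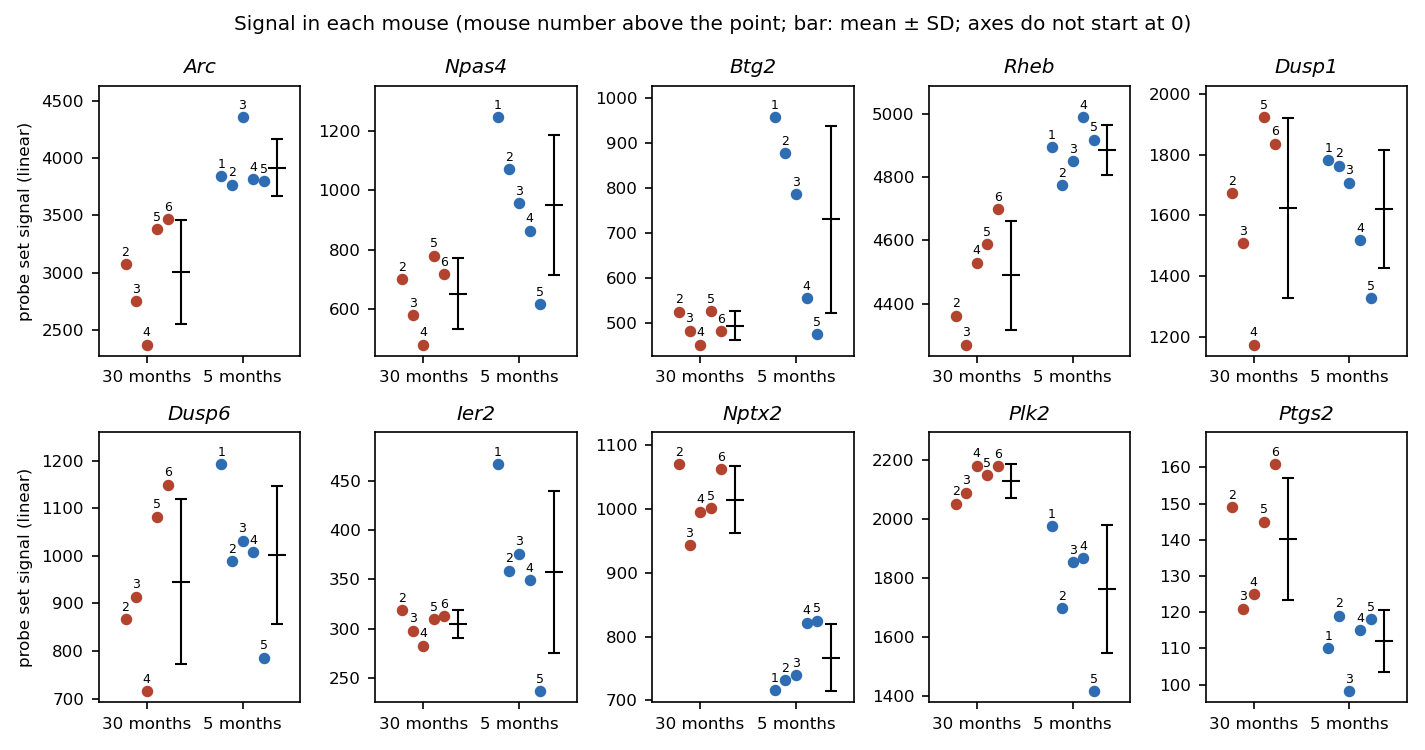
Linear signal of the main probe set of each gene (vertical axis) in each mouse of 30 months (left, red) and 5 months (right, blue); numbers name the mice, bars give the mean ± SD of 5 mice, and axes do not start at 0. The ages separate completely for Arc, Rheb, Nptx2, Plk2 and Ptgs2, and 5-month mouse 5 lies among the 30-month mice in Npas4 and Btg2.

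Arc encodes a cytoskeleton-associated protein of dendrites that promotes the removal of AMPA receptors from synapses. Its signal was 3072, 2749, 2369, 3382 and 3467 in 30-month mice 2 to 6, against 3845, 3769, 4359, 3819 and 3801 in 5-month mice 1 to 5. Every old mouse lay below every young mouse, a separation that 5.75% of all tested genes showed in this direction. Arc was 1.31-fold lower at 30 months, with mean log2 signals of 11.54 ± 0.23 at 30 months and 11.93 ± 0.09 at 5 months (SD, n = 5 each; log2 change −0.39, SE 0.09, adjusted p = 0.00296). Mouse 4 was the lowest old mouse, and Arc was also lower without it (−0.31, adjusted p = 0.00317). In the authors' deposited table Arc had a signed fold change of −1.3 with a p-value of 0.009664, and it was not marked.

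Npas4 is a transcription factor of neurons that responds selectively to calcium entry and shapes inhibitory synapses. Its signal was 701, 580, 482, 780 and 718 in 30-month mice 2 to 6, against 1245, 1071, 957, 864 and 617 in 5-month mice 1 to 5. The old mice lay below 4 of the young mice, and 3 old mice lay above 5-month mouse 5. Npas4 was 1.44-fold lower at 30 months, with mean log2 signals of 9.33 ± 0.28 at 30 months and 9.85 ± 0.38 at 5 months (SD, n = 5 each; log2 change −0.53, SE 0.17, adjusted p = 0.0206). The call was narrowly lost without 5-month mouse 2 (−0.47, adjusted p = 0.0502). It was also narrowly lost without 30-month mouse 4 (−0.42), where the adjusted p rounds to 0.05. Without 5-month mouse 5 the change was −0.67 (adjusted p = 0.00226).

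Btg2 encodes an antiproliferative cofactor that acts in mRNA deadenylation. Its brighter probe set read 524, 482, 451, 526 and 481 in 30-month mice 2 to 6, against 957, 877, 786, 555 and 474 in 5-month mice 1 to 5. The old mice were close to each other, and the young mice ranged from values like theirs up to more than any old mouse. Btg2 was 1.43-fold lower at 30 months, with mean log2 signals of 8.94 ± 0.09 at 30 months and 9.46 ± 0.44 at 5 months (SD, n = 5 each; log2 change −0.52, SE 0.16, adjusted p = 0.0176). The dimmer probe set read 319, 318, 337, 445 and 383 in 30-month mice 2 to 6, against 713, 589, 500, 369 and 175 in 5-month mice 1 to 5. There all old mice lay within the young range, and the change of −0.24 did not pass in the fit over 22518 probe sets (adjusted p = 0.526), in which 11.8% of probe sets were called lower and 29.1% higher. With the probe sets averaged, Btg2 lost its call (−0.38, adjusted p = 0.183).

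Rheb is a small GTPase, held in check by the TSC complex, that activates the growth kinase complex mTORC1. Its signal was 4362, 4271, 4530, 4588 and 4698 in 30-month mice 2 to 6, against 4895, 4774, 4850, 4989 and 4919 in 5-month mice 1 to 5. The ages did not overlap, but the difference was small. Rheb was 1.09-fold lower at 30 months, with mean log2 signals of 12.13 ± 0.06 at 30 months and 12.25 ± 0.02 at 5 months (SD, n = 5 each; log2 change −0.12, SE 0.03, adjusted p = 0.0108). Its spread within an age was among the lowest of all genes, with a residual SD of 0.04 that exceeded only 1.42% of them. The call was lost when arrays were scaled to a common median of all probe sets (−0.10, adjusted p = 0.0761), and the change was −0.22 with a common median of the tested genes (adjusted p = 0.000802).

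Nptx2, a secreted pentraxin that clusters AMPA receptors at synapses on interneurons, went the other way. Its brighter probe set read 1071, 943, 996, 1002 and 1063 in 30-month mice 2 to 6, against 716, 732, 740, 822 and 825 in 5-month mice 1 to 5. Every old mouse lay above every young mouse, as in 24.5% of all tested genes. Nptx2 was 1.32-fold higher at 30 months, with mean log2 signals of 9.99 ± 0.08 at 30 months and 9.58 ± 0.10 at 5 months (SD, n = 5 each; log2 change 0.41, SE 0.06, adjusted p = 0.000186). It was the only member marked in the authors' deposited table, with a signed fold change of 1.32, a lower bound of 1.23 and a p-value of 0.00024. The authors marked 8.96% of probe sets. Their p-values for the main probe sets of the other members called here ran from 0.009664 for Arc to 0.068388 for Btg2. The dimmer probe set read from 98.8 to 159 in 30-month mice and from 107 to 148 in 5-month mice, near the filter value of 118.5 on the linear scale, and its change of 0.07 did not pass (adjusted p = 0.705). With the probe sets averaged the change of Nptx2 was 0.24 (adjusted p = 0.0405), and after quantile normalization it was 0.27 (adjusted p = 0.00492).

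Plk2 is a polo-like kinase that weakens overactive synapses by marking spine proteins for breakdown. Its signal was 2052, 2089, 2181, 2148 and 2179 in 30-month mice 2 to 6, against 1976, 1699, 1854, 1867 and 1417 in 5-month mice 1 to 5. The old mice lay above all young mice and close to each other. Plk2 was 1.22-fold higher at 30 months, with mean log2 signals of 11.06 ± 0.04 at 30 months and 10.77 ± 0.19 at 5 months (SD, n = 5 each; log2 change 0.28, SE 0.08, adjusted p = 0.00799). Without the lowest young mouse, mouse 5, the change was 0.21 (adjusted p = 0.00531). It was 0.18 after quantile normalization (adjusted p = 0.0317) and also with a common median of the tested genes (adjusted p = 0.043).

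Ptgs2 encodes cyclooxygenase-2, which makes prostaglandin precursors and is induced by activity in excitatory neurons and by inflammation elsewhere. Its main probe set was dim, at 149, 121, 125, 145 and 161 in 30-month mice 2 to 6, against 110, 119, 98.2, 115 and 118 in 5-month mice 1 to 5. All old mice lay above all young mice, the closest pair by a small margin. Ptgs2 was 1.25-fold higher at 30 months, with mean log2 signals of 7.12 ± 0.18 at 30 months and 6.80 ± 0.11 at 5 months (SD, n = 5 each; log2 change 0.32, SE 0.10, adjusted p = 0.0198). The mean at 5 months was below the filter value, so the probe set was tested because of its level at 30 months. The other probe set was not tested, and read from 82.7 to 122 in 30-month mice and from 90.1 to 141 in 5-month mice, with a log2 change of −0.18. The call was lost without 5-month mouse 3 (adjusted p = 0.0524), without 30-month mouse 6 (adjusted p = 0.0521), and when arrays were scaled to a common median of the tested genes (0.22, adjusted p = 0.0955).

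The members that did not pass the test were both phosphatases and Ier2. Dusp1, a nuclear phosphatase that inactivates several MAP kinases, read 1672, 1509, 1174, 1923 and 1836 in 30-month mice 2 to 6, against 1782, 1764, 1708, 1518 and 1328 in 5-month mice 1 to 5. The ages overlapped and the means differed little (log2 change −0.01, SE 0.12, adjusted p = 0.953). Dusp6, a cytoplasmic phosphatase specific for ERK, read 867, 914, 716, 1082 and 1149 in 30-month mice 2 to 6, against 1193, 988, 1032, 1007 and 786 in 5-month mice 1 to 5. Its change of −0.09 was smaller than its SE of 0.13 (adjusted p = 0.586).

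Ier2, a nuclear protein of the immediate-early response, read 319, 298, 283, 310 and 313 in 30-month mice 2 to 6, against 467, 359, 376, 349 and 237 in 5-month mice 1 to 5. The old mice lay together below 4 young mice and above 5-month mouse 5. Over all mice the log2 change was −0.20 (SE 0.13, adjusted p = 0.235). Without 5-month mouse 5 it was −0.34 and passed the test (adjusted p = 0.00759).

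**Figure D2:**
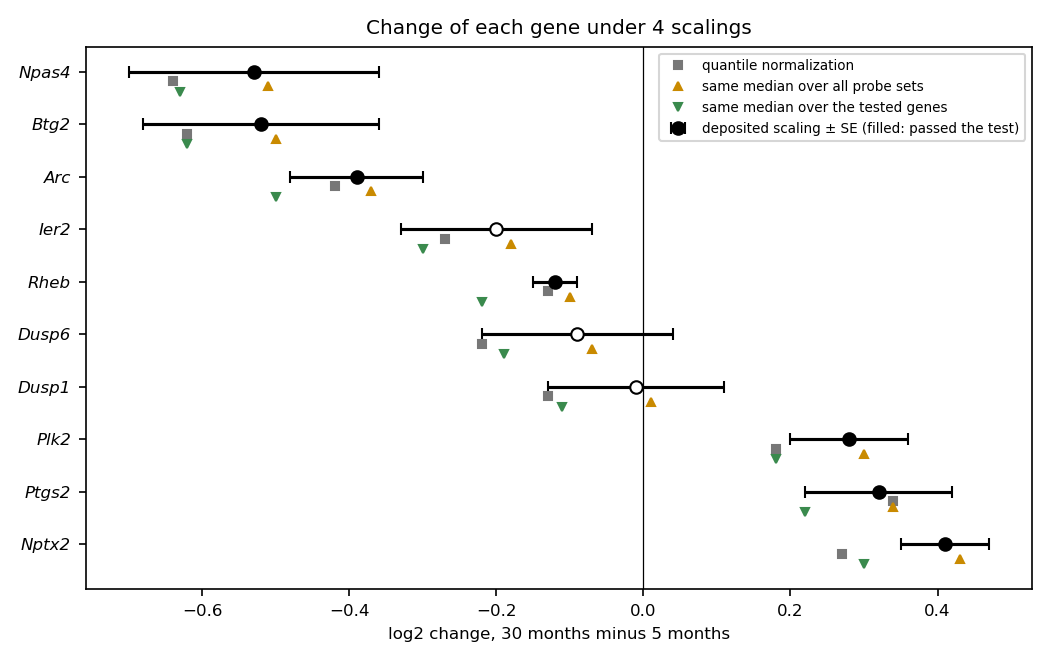
Log2 change of each gene, 30 months minus 5 months, with the deposited scaling (circles with SE bars, filled where the test was passed) and with 3 other scalings (squares and triangles). Changes run from −0.53 for Npas4 to 0.41 for Nptx2, and apart from Dusp1 no gene changes side under another scaling.

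Over the array set as a whole, the balance of calls moved with the scaling. Under the deposited scaling 73.5% of the called genes were higher, against 52.9% after quantile normalization, 76.7% with a common median of all probe sets and 47% with a common median of the tested genes. The last of these moved the median change of all genes to −0.02. The members called under these 4 scalings were 3, 3, 3 and 2 higher and 4, 4, 3 and 4 lower. In the same order 34%, 22.9%, 35.5% and 21.2% of all tested genes were higher. The shares lower were 12.3%, 20.4%, 10.7% and 23.9%. Array medians were 114.5 to 122.6 in 30-month mice and 116.6 to 122.6 in 5-month mice.

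The spread between mice of one age was wide in several members. The residual SD of log2 signal within an age had a median of 0.20 over the members and 0.11 over all tested genes. It was highest for Npas4 (0.33), Btg2 (0.32), Ier2 (0.25), Dusp6 (0.25) and Dusp1 (0.24), each above that of more than 92% of genes. Among the young mice, mouse 5 had the lowest signal in 6 members (Btg2, Dusp1, Dusp6, Ier2, Npas4 and Plk2), and mouse 1 had the highest signal in the same 6. Mouse 5 was also the lowest young mouse in 41% of all tested genes, and mouse 1 the highest in 31.9%. Among the old mice, mouse 4 was the lowest in 6 members (Arc, Btg2, Dusp1, Dusp6, Ier2 and Npas4) and in 30.5% of all tested genes.

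The low values of these mice were not shared by all members. In 5-month mouse 5 the deviation from the mean of its age was −0.59 in Npas4, −0.57 in Btg2 and −0.56 in Ier2 on the log2 scale, but −0.04 in Arc. In 30-month mouse 4 it was −0.45 in Dusp1, −0.41 in Npas4 and −0.33 in Arc, but −0.11 in Ier2. The median deviation over all tested genes was −0.06 in 5-month mouse 5 and −0.02 in 30-month mouse 4. With both mice left out, 3 members were called higher and 5 lower, Ier2 being the addition (−0.31, adjusted p = 0.0148). Of all tested genes 32.3% were then higher and 11.8% lower. The part of array quality or of the state of each mouse in these deviations was not tested.

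**Figure D3:**
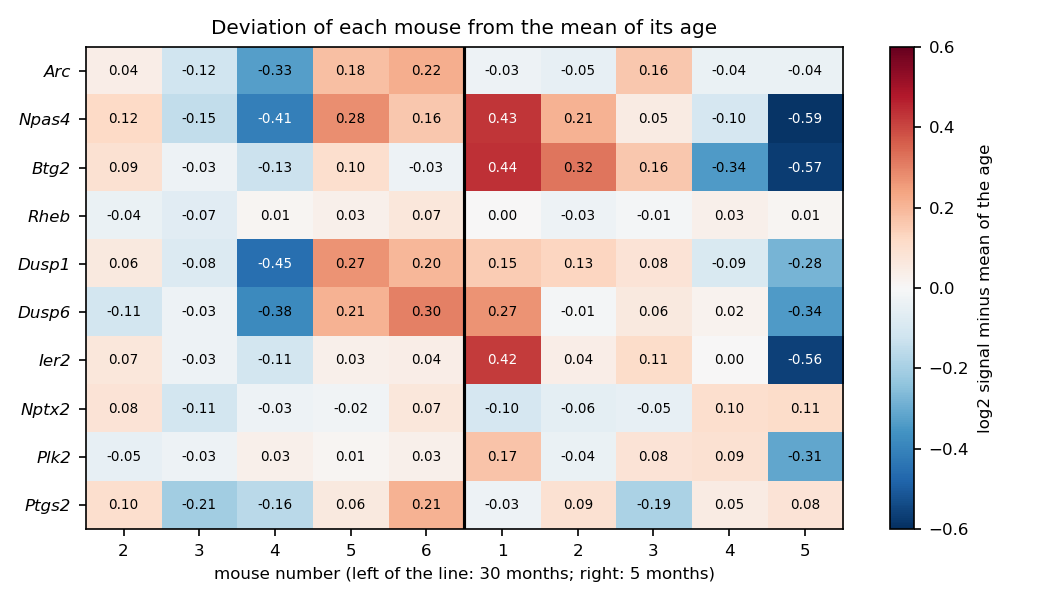
Log2 signal of each gene (rows) in each mouse (columns) minus the mean of the 5 mice of its age, 30 months left of the line and 5 months right of it. Mouse 4 of 30 months and mouse 5 of 5 months hold the lowest values, down to −0.45 in Dusp1 and −0.59 in Npas4.

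The genes with the most similar pattern over the 10 arrays were sought for each member by the root mean square difference of log2 signals, each gene centred on its own mean. The nearest genes to Arc were Nr4a1 (0.069) and Egr1 (0.084), both activity-induced transcription factors, and Ivns1abp (0.11), against a value of 0.25 for Arc set against a flat line. The nearest to Npas4 were Fos (0.13), Btg2 (0.16) and Rpa3 (0.21), against 0.40 for a flat line. The nearest to Btg2 were Npas4 (0.16), Fos (0.18) and Hcrt (0.19). For Dusp6 the list held Dusp1 (0.11), beside Tom1l1 (0.10) and Slain1 (0.11). The nearest to Nptx2 were Maf (0.035), Kmt2e (0.047) and Naf1 (0.058), none of them in the activity lists. The nearest to Plk2 were Vti1b and Pfkm (0.028 each) and Elp5 (0.04), and the nearest to Ptgs2 were Tox4 and Sestd1 (0.058 each) and Lhx2 (0.067). The nearest to Rheb were Ndufa1 (0.03) and Cox7c (0.031), both genes of the respiratory chain, and Cx3cl1 (0.035). For Dusp1 they were Tom1l1 (0.094), Boc (0.095) and Mcc (0.1), and for Ier2 Arf5 (0.12), Ttc9b (0.13) and H3f3a (0.13). Against a flat line the value was 0.07 for Rheb, so its small differences stand beside a small value of its own. It was 0.38 for Btg2, 0.25 for Ier2, 0.22 for Dusp6 and Nptx2, 0.21 for Dusp1 and Ptgs2, and 0.19 for Plk2.

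The immediate-early transcription factors are induced by the same signals as the members. Of the 12 genes tested, 6 fell, 1 rose and 5 missed the threshold, with a median log2 change of −0.26. Beside the counts of this list and of those that follow stand 34% higher and 12.3% lower over all tested genes. Egr2 fell by 1.03 on the log2 scale (adjusted p = 4.76e-05), Fos by 0.51 (adjusted p = 0.00591), Nr4a1 by 0.36 (adjusted p = 0.00488) and Egr1 by 0.26 (adjusted p = 0.00551). Jun, the 1 that rose (0.24, adjusted p = 0.0454), was named after its value was seen. In the fit over all probe sets neither probe set of Jun passed, and the gene lost its call after quantile normalization, with a common median of the tested genes, and with 30-month mouse 4 and 5-month mouse 5 left out. In this list too, 30-month mouse 4 was the lowest old mouse in 9 of 12 genes and 5-month mouse 5 the lowest young mouse in 7, with 5-month mouse 1 the lowest in the other 5. With 30-month mouse 4 and 5-month mouse 5 left out, 6 of the 12 were lower, beside 11.8% of all tested genes. The median change of the list was then −0.15.

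Among 34 further activity-induced effectors, 5 rose, 6 fell and 23 missed the threshold, and the median change was −0.04. Spry2, an inhibitor of receptor signalling to ERK, rose by 0.84 (adjusted p = 1.12e-05), and Ier3, a stress-response gene, rose by 0.52. Gadd45g, a growth arrest gene, fell by 0.46, and Plat, the tissue plasminogen activator gene, fell by 0.28. Under the other scalings 4 to 6 of these genes were higher and 5 to 10 lower.

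The signalling genes upstream of the members are given beside the 46.3% of all tested genes that were called in either direction. Of 16 genes of CREB, SRF, MEF2 and their partners, 5 rose, 2 fell and 9 did not pass (median 0.10). Crtc1, the CREB coactivator, rose by 0.37, Elk1, an SRF partner that ERK phosphorylates, rose by 0.41 and the acetyltransferase gene Ep300 by 0.29. Elk4 fell by 0.23, although another of its probe sets was called higher. Higher calls outnumbered lower calls in this list, as they did over all tested genes (34% higher, 12.3% lower). After quantile normalization 3 were higher and 3 lower (median −0.01), beside 22.9% and 20.4% of all tested genes. With a common median of the tested genes 3 were higher and 4 lower, beside 21.2% and 23.9%. Of 18 Ras-ERK genes, 4 rose and 14 did not pass (median 0.04). The risers were the kinase genes Rps6ka2 (0.37), Map2k2 (0.33), Mapk3 (0.15) and Map2k1 (0.13). Quantile-normalized, 3 Ras-ERK genes were higher and 2 lower, and with a common median of the tested genes 2 were higher and 3 lower.

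Relatives and partners of the members went both ways. Of 8 other MAP kinase phosphatases, Dusp16 rose (0.83, adjusted p = 1.16e-05, with a young mean of 6.79 below the filter, so that it was tested because of its level at 30 months), Dusp14 fell (log2 change −0.52, adjusted p = 0.000171) and 6 did not pass. Of 14 genes around Rheb and mTORC1, 5 rose, 4 fell and 5 did not pass (median 0.05), against 4 higher and 4 lower after quantile normalization (median −0.02). Mtor, the kinase, rose by 0.36, although its other tested probe set was called lower, and Tsc1, a subunit of the complex that inhibits Rheb, rose by 0.37. Eif4ebp1, an mTORC1 substrate, rose by 0.38, and Rps6, a ribosomal protein gene whose young mean of 6.93 was close to the filter, rose by 0.62. Of 15 partners of Arc and the pentraxins, 5 rose, 2 fell and 8 did not pass (median 0.08). The balance and the sign of the median turned with quantile normalization (3 higher, 3 lower, median −0.02) and a common median of the tested genes (3 higher, 4 lower, median −0.02). Gria2 of the AMPA receptor fell by 0.22, with 1 of its 3 tested probe sets called. Gria4 rose by 0.30, with 1 of 5 called, and the clathrin adaptor gene Ap2m1 rose by 0.53. Of the pentraxin relatives of Nptx2, chosen after their values were seen, Nptxr rose by 0.13 (adjusted p = 0.0431), and the change of 0.10 in Nptx1 did not pass (adjusted p = 0.176).

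Of 8 relatives and spine targets of Plk2, 2 rose, 2 fell and 4 did not pass (median 0.00). Plk3 rose by 0.45. Plk5 fell by 0.21 (adjusted p = 0.0444), but its probe set did not pass in the fit over all probe sets. Sipa1l1, the spine protein that Plk2 marks for breakdown, rose by 0.31 and Pdlim5 fell by 0.50. Of 11 genes of prostanoid synthesis and reception, 3 rose, 2 fell and 6 did not pass (median 0.03), against 1 higher and 2 lower after quantile normalization. The synthase genes Ptges3 and Ptges2 rose by 0.27 and 0.29, and the receptor genes Ptgfr and Ptger2 fell by 0.42 and 0.33. Of 9 genes of the response to glucocorticoids, which also induce Dusp1, 2 rose and 7 did not pass (median 0.12). This list held receptor genes as well as targets. The risers were Tsc22d3 (0.28) and Sgk1 (0.30), and neither kept its call after quantile normalization or with a common median of the tested genes.

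**Figure D4:**
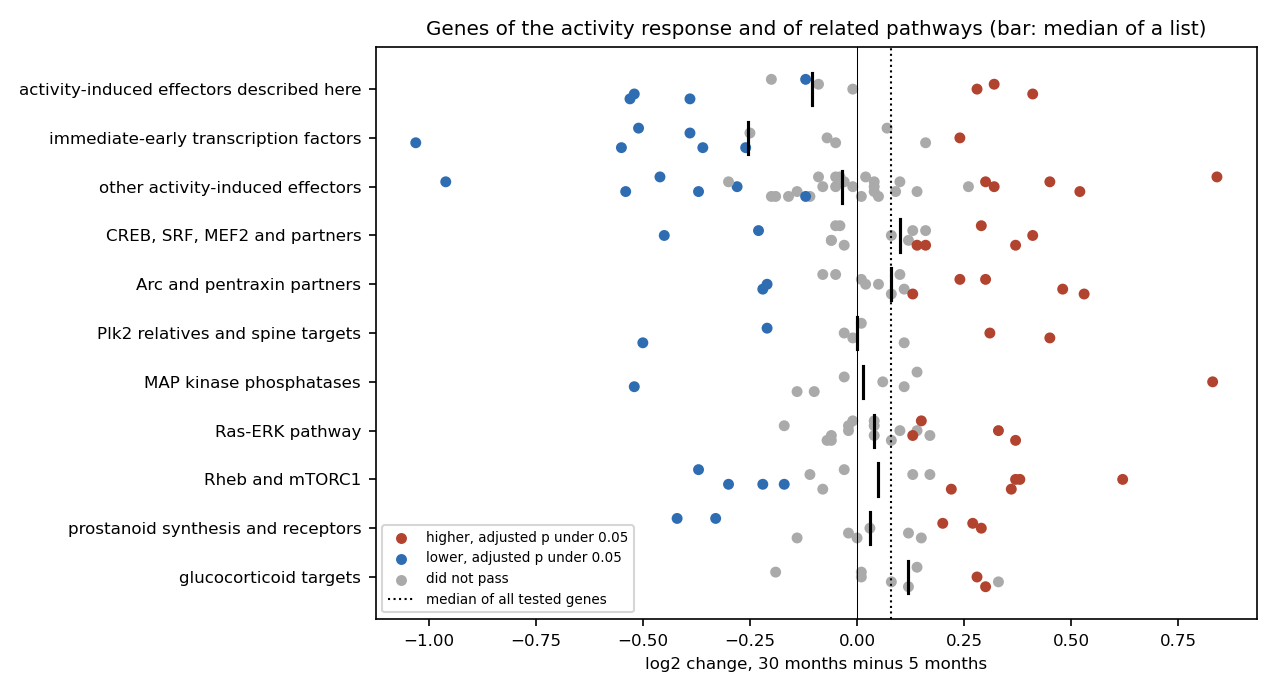
Log2 change, 30 months minus 5 months, of every tested gene of 11 lists (rows); red points were called higher, blue points lower and grey points did not pass, and the bar is the median of the list. The immediate-early transcription factors have the lowest median, −0.26, and the dotted line marks the median of all tested genes, 0.08.

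Markers of other cells differed between the ages beside these results. The summed signal of 5 neuron markers was 28266 to 29956 at 30 months and 27415 to 30037 at 5 months, and 1 of the 5 was called higher. The sum of 5 astrocyte markers was 9988 to 10921 at 30 months and 5992 to 6987 at 5 months, with 5 of 5 higher. The sum of 5 microglia markers was 6366 to 6803 at 30 months and 5398 to 5625 at 5 months, with 2 higher and 2 lower, and that of 5 endothelial and pericyte markers was 3070 to 3425 at 30 months and 2066 to 2437 at 5 months, with 3 of 4 tested higher. The part of these glial and vascular cells in the members' changes was not tested. Oligodendrocyte markers summed to 23652 to 28263 at 30 months and 23189 to 25026 at 5 months, with 2 of 5 higher. Markers of tissue next to the neocortex were measurable: striatal markers summed to 5427 to 6431 at 30 months and 5711 to 6405 at 5 months, with 1 of 5 lower. The 5 hippocampal markers summed to 1927 to 2469 at 30 months and 1580 to 1800 at 5 months, and of the 2 tested (Prox1 and Wfs1) Wfs1 was higher. Choroid plexus markers varied between mice, with sums from 3656 to 11921 at 30 months and from 8791 to 11467 at 5 months. Of these markers 2 of 2 tested were lower, and 3 of the 5 (Kl, Folr1 and Kcne2) were under the filter. Meningeal markers summed to 1279 to 1869 at 30 months and 1588 to 1849 at 5 months, with 1 of 3 tested lower.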

How the data were processed

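Each of the 10 arrays had a deposited intensity per probe set, linear in scale. GCOS is named, without a version, per the submitters' processing notes, while the sources used here do not state background correction, probe summary or scaling. A second table by the authors held the same intensities beside a signed fold score with its lower bound and a p-value, per the file headers.

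Gene names came from the deposited gene identifiers, matched to a GRCm38.p6 gene table. Of 45037 probe sets, 36299 had 1 gene. Signals under 1 were set to 1 and log2 was taken. The model was limma 3.58.1 in R 4.3.3 with age as its term, a trend of variance with signal and two-sided tests, and it was tested on simulated data. The median SE of a log2 change was 0.07. For several named list genes, among them Spry2, Plat, Crtc1, Elk1 and Rps6ka2, not every tested probe set was called. The number of arrays limits the precision. The members and lists were chosen with earlier results of these data known. All members were named, plus up to 4 called genes per list and the 3 nearest patterns per member; others are said to be chosen later, and 1 gene that the rule names is not reported here. The alternatives covered scaling, added constants, filters, probe set averaging, variance models, array weights, the mouse number as a block and leaving out each array. Promoters came from RefSeq. Tables and plots used pandas 2.3.3, matplotlib 3.10.9 and numpy 2.4.6 under Python 3.11.15.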

Additional observations from a re-analysis of the deposited data

Results flagged for a closer look

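In Arc, the signal of 5-month mouse 3 (4359) stood apart above the other young mice (3769 to 3845). The gap to the nearest of them was 0.864 of the whole range of the 5 mice on the log2 scale, above the critical value of 0.71 of Dixon's test. It was the only such value in 26 sets of 5 mice (13 probe sets at 2 ages), and chance flags about 1 set in 20. Without this mouse Arc remained lower at 30 months (log2 change −0.35, adjusted p = 0.0102).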

How the results depend on the processing

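Arc, Nptx2 and Plk2 kept their direction and their call under all 24 alternatives, with log2 changes from −0.50 to −0.31, from 0.24 to 0.44 and from 0.18 to 0.33. Npas4 (−0.67 to −0.42), Btg2 (−0.66 to −0.38), Rheb (−0.22 to −0.10) and Ptgs2 (0.21 to 0.38) kept their direction. Besides the losses given above, over the 8 mice numbered 2 to 5 Btg2 (adjusted p = 0.0656) and Ptgs2 (0.086) lost their calls. With mouse number as a replicate block over the same mice, Npas4 (−0.46, adjusted p = 0.0558) and Ptgs2 (0.26, 0.0946) lost theirs, and 3467 genes were higher and 1007 lower. The deviations of same-numbered mice correlated at −0.33, −0.04, 0.08 and 0.11. Those of differently numbered mice ran from −0.44 to 0.41. So few pairs within that range cannot show whether the numbers mark anything shared by the mice. The changes of Dusp1 and Dusp6, which never passed, turned sign: Dusp1 was 0.01 with the same median over all probe sets, 0.04 with array weights, 0.03 with 5-month mouse 5 and 30-month mouse 4 left out, and −0.08 to 0.10 with each array left out, and Dusp6 was −0.17 to 0.01. At an adjusted p under 0.01, 1 member was lower and 2 were higher.

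Of all genes, 2435 were lower after quantile normalization and 848 with the filter at the 75th percentile, and with the same median over the tested genes 2535 were higher and 2862 lower. Of the other listed genes, 31 higher and 25 lower under the deposited scaling, 19 were higher after quantile normalization, 20 higher and 39 lower with the same median over the tested genes, and 15 lower with the stricter filter. Of the members' probe sets, 4 lower and 3 higher, 2 were lower with no filter, with the block and over the 8 mice, 2 to 6 with each array left out, and 1 was higher with the same median over the tested genes. The same-median scaling over the tested genes, the 8 mice without a block and leaving out both mice were chosen after seeing the data. Dim probe sets near the filter, those of Ptgs2 and the dimmer of Nptx2, limit what can be read from them.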
